A study of Mus musculus with 2 samples.

Results

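Mir132 and Mir212 are a pair of microRNA genes that were read here in the midbrain of mouse embryos. They were taken by name, by matching the gene identifiers of the count tables to mouse gene symbols, and make up 2 of the 1973 microRNA genes listed. The tissue came from healthy mice (Mus musculus) of B6NCrl, a C57BL/6N line, at embryonic day 16.5, with male and female embryos pooled. The labels name no treatment and no altered gene. The 1 group held 2 libraries of inserts below 30 nt, labelled as biological replicates. The pool behind replicate 2 held 37 embryos, while the labels say of replicate 1 only that embryos were pooled. Conditions could not be contrasted within a single group, so the results are the levels of both genes, their proportion to each other and the difference between the libraries.

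A microRNA is cut as a short single strand from a hairpin in a longer transcript, and guides the silencing of mRNAs that match its seed, the bases near its 5′ end. The hairpins of miR-212 and miR-132 come from 1 non-coding transcript, which the transcription factor CREB switches on in neurons after synaptic activity or neurotrophin signals. miR-132 is known for promoting growth of dendrites and spines, in part by repressing the GTPase-activating protein Arhgap32 (p250GAP), and the dopamine neuron factor Nr4a2 has also been described as a target. miR-212 is usually the scarcer of the pair.

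The mature sequences show how closely the products are related. They are printed 5′ to 3′ from RefSeq on build GRCm38.p6, which held both genes, with the seed (bases 2 to 8) in capitals.
miR-132-3p: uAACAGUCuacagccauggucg
miR-212-3p: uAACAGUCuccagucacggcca
miR-132-5p: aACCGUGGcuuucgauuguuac
miR-212-5p: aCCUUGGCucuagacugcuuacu

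The 3p products have the same seed, AACAGUC, and no other gene among the 1058 with a mature RefSeq sequence carries it. Of the 1398 different seeds in that table, 216 (15.5%) occur in 2 or more genes. Counted from 1 at the 5′ end, miR-132-3p and miR-212-3p have the same base at 17 of 22 positions, and the first 9 are identical. Written with the miR-132-3p base first, the substitutions are A10C, C14U, U17C, U20C and G22A. The 5p products have different seeds, ACCGUGG and CCUUGGC, and neither occurs in another gene of the table. Lined up from the 5′ end with no gaps, they have the same base at 9 of 22 positions.

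The hairpins themselves differ more than the 3p products do. They are shown with the 3p product in capitals.
Mir132 hairpin: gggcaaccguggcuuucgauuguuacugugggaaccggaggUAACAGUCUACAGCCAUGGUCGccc
Mir212 hairpin: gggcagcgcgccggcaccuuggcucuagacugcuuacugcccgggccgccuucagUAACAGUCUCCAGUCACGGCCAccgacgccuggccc

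The longest run of bases in both hairpins is 10, guaacagucu, which spans the seed. Against the other 1003 hairpins of the table, the longest shared run is 10 bases for Mir132 and 11 for Mir212, so a read that covers a mature product of 22 or 23 bases matches 1 of these hairpins only, if no mismatch is allowed. Whether such a read also matches elsewhere in the genome was not tested. Mir212 is unusually rich in G and C, at 69.2% of its 91 bases, above 97.2% of the 354 hairpins with a sequence and enough reads to be tested. Mir132, with 66 bases, has 57.6%, above 77.4% of them. The 3p products are closer: miR-212-3p has 54.5%, and miR-132-3p has as many G and C as A and U. RNAfold gave a minimum free energy of -41.5 kcal/mol for the Mir212 hairpin of 91 bases and -37.2 kcal/mol for the Mir132 hairpin of 66 bases. These energies are not adjusted for length, so they do not rank the hairpins by stability per base.

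On mm10, Mir212 (ENSMUSG00000065590) lies at chr11:75173388-75173478 and Mir132 (ENSMUSG00000065537) at chr11:75173682-75173747, both on the plus strand, as GENCODE M21 and RefSeq place them. Both are intronic, within the first intron (1380 bases) of the non-coding gene 1700016P03Rik (ENSMUSG00000085609), which spans chr11:75172560-75177633 with 3 exons. The map of the locus shows Mir212 first in the direction of transcription, 790 bases after the end of the first exon, then 203 bases of intron, then Mir132, which ends 230 bases before the second exon.

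**Figure D1:**
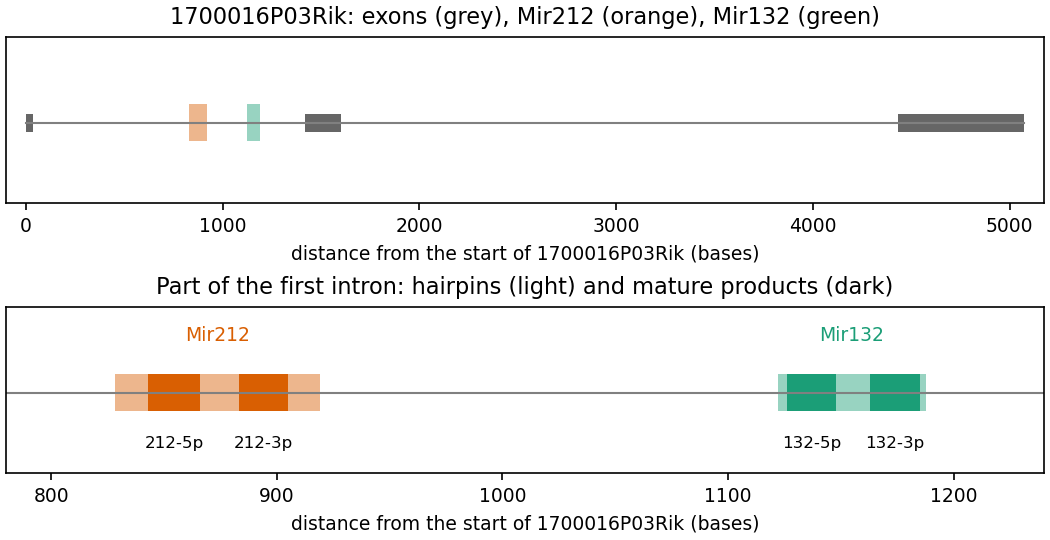
Map of the host gene 1700016P03Rik (above) and of the stretch of its first intron with the hairpins (below), with distance from the start of the gene in bases on both axes. Mir212 starts 828 bases and Mir132 1122 bases from the start of the gene, and each hairpin holds a 5p and a 3p product.

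Both genes were expressed, Mir132 far above the middle of the genes tested and Mir212 a little below it. Levels are given in CPM, the count scaled to a common total of reads on the sense strand of microRNA genes, which numbered 6151299 in replicate 1 and 5312642 in replicate 2, with no scaling for gene length. The counts join the 5p and the 3p product of a hairpin, so the levels belong to the hairpins and not to 1 arm. Mir132 had 6523 reads in replicate 1 and 7054 reads in replicate 2. This came to 1060 CPM (95% exact Poisson interval 1035 to 1086) and 1328 CPM (1297 to 1359). Replicate 2 was the higher and the counting intervals did not overlap. The mean was 1194 ± 189 CPM (SD, n = 2), rank 88 of all genes listed, with 78.6% of the 411 genes tested below it. Genes were tested if they had 10 or more reads in both libraries. Reads that mapped to several places, 35.3% of all reads in replicate 1 and 36.5% in replicate 2, are not in the gene counts. Their part in the levels and ranks of the genes was not tested.

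Mir212 had 326 reads in replicate 1 and 352 in replicate 2. Its level was 53.0 CPM (95% exact Poisson interval 47.4 to 59.1) in replicate 1 and 66.3 CPM (59.5 to 73.6) in replicate 2. Here too replicate 2 was the higher, and the intervals stood just apart. The mean was 59.6 ± 9.38 CPM (SD, n = 2), rank 242, with 41.1% of the genes tested below it. These intervals cover counting error only, since PCR copies were not marked by molecular identifiers in the tables. Both libraries had 0 reads on the opposite strand of either hairpin, which allows a level there of up to 0.488 CPM in replicate 1 and 0.565 CPM in replicate 2. In whole tissue, fewer cells with these microRNAs and less of them per cell cannot be told apart.

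Genes next to Mir132 in level could not be separated from it by the spread between libraries. The 3 genes directly above it in mean CPM were Mir188, Mir134 and Mir181b-2, and the 3 directly below were Mir337, Mir92-1 and Mir300. All 6 lay within 1 SD of Mir132, from 1299 CPM for Mir188 to 1099 CPM for Mir300. Mir134, a microRNA of dendrites that represses the kinase Limk1, stood at 1212 ± 66.3 CPM. In total, 7 genes lay within 1 SD of Mir132. Around Mir212 the spacing was closer still, with 16 genes within its SD. Mir1249, Mir200b and Mir200c stood above it, from 61.5 to 60.7 CPM, and Mir551b, Mir1981 and Mir3072 below it, from 58.2 to 57.1 CPM. The likeness is in mean level over 2 libraries only, as Mir200b shows with 105 CPM in replicate 1 but 17.5 CPM in replicate 2.

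**Figure D2:**
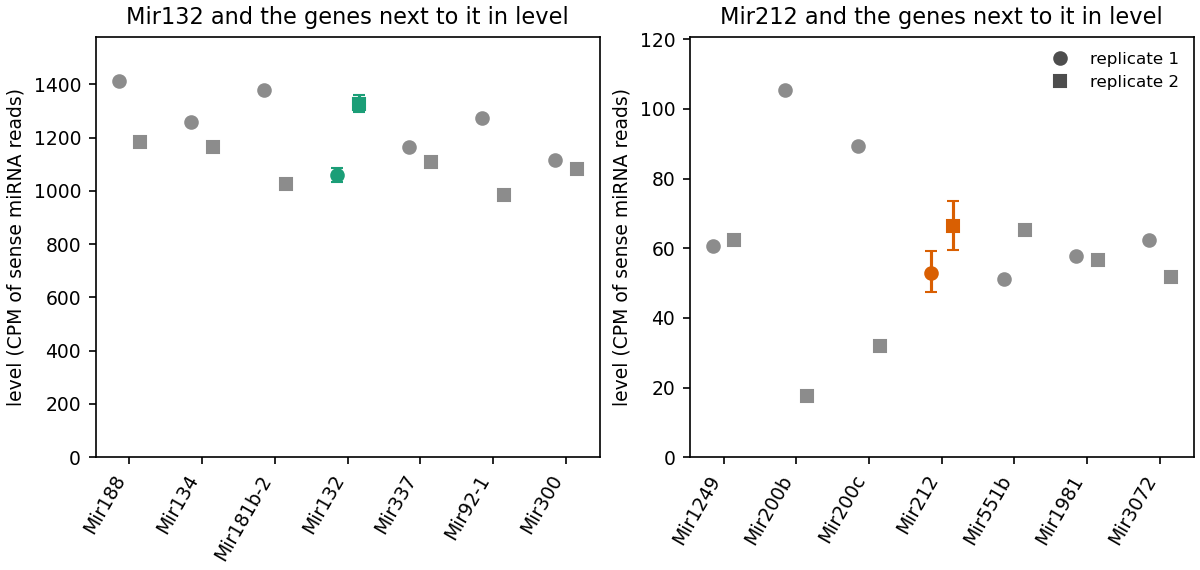
Level in CPM of Mir132 (left) and Mir212 (right) and of the 3 genes on either side of each in mean level, with circles for replicate 1 and squares for replicate 2; bars on the coloured points are 95% exact Poisson intervals. Mir132 went from 1060 to 1328 CPM and Mir212 from 53.0 to 66.3 CPM, while the 6 genes around Mir132 all had the lower value in replicate 2.

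The hairpins of the shared transcript were read at nearly the same proportion in both libraries. Mir132 had 20.01 times the reads of Mir212 in replicate 1 (95% exact interval 17.9 to 22.4) and 20.04 times in replicate 2 (18.0 to 22.4). Of the 6849 reads of the pair in replicate 1, 95.24% were from Mir132 (95% Clopper-Pearson interval 94.7 to 95.7), as were 95.25% of the 7406 reads in replicate 2 (94.7 to 95.7). The mean share was 95.2% ± 0.0049 (SD, n = 2). Fisher's exact test of the reads of the 2 hairpins in the 2 libraries found no difference in proportion (two-sided p = 1), with an odds ratio of 1.00 (95% interval 0.856 to 1.17). The reads of Mir212 therefore limit the comparison: a shift of the proportion by up to 0.23 on the log2 scale lay inside the interval, and the SD of the share is smaller than its counting error. Reads of microRNAs are whole inserts, so the fold is given per hairpin. Divided by the lengths of the hairpins, the fold was 27.6. The pair shares the seed AACAGUC in its 3p products. Its summed level, over both arms, came to 1113 CPM in replicate 1 against 1394 CPM in replicate 2 (1254 ± 198, SD, n = 2).

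The same measures over other neighbouring hairpins put the proportion in context. In the annotation, 65 pairs of hairpins next to each other on 1 strand, with starts within 1 kb and 10 or more reads each in both libraries, could be compared, made up of 108 hairpins. Pairs that share a hairpin are not independent. By Fisher's exact test with Benjamini-Hochberg adjustment over all pairs, 21 of them (32.3%) changed their proportion between the libraries. Mir212 and Mir132 did not pass (adjusted p = 1). The gap between the log2 ratios of a pair's hairpins had a median of 0.20 and reached 0.90, and that of Mir212 and Mir132 was 0.0024, the smallest of the 65. Since this gap lies far inside its own counting interval, its rank is a description and not a measure of how tightly the pair is held.

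In these counts, the fold between the hairpins was above the median for a pair but not the largest. It had a median of 7.25 over the 65 pairs, against 20.0 for Mir132 over Mir212, and 19 pairs had a larger fold. The largest, 726, was that of Mir20a over Mir19b-1, a hairpin with 64 reads in replicate 1 and 35 in replicate 2. Multiply mapped reads are missing from these counts. Their part in the folds, and in the rank of this pair by fold, was not tested. Of 63 pairs with RefSeq sequences for both genes, 15 (23.8%) have mature products with a common seed, as this pair does. Among them, Mir221 and Mir222, of a family that promotes proliferation, differed 1.92-fold in level with a gap of 0.028. Mir34c and Mir34b, of a family induced by p53, differed 26.3-fold with a gap of 0.21. Neither passed the test of the proportion (adjusted p = 0.863 and 0.328 by Fisher's exact test). Of the 15 pairs with a common seed, 5 were called, against 21 (32.3%) of all 65 pairs. Among the 5 were Mir181d and Mir181c, which differed 2.26-fold in level with a gap of 0.065. Mir16-1 and Mir15a, also called, differed 2.30-fold with a gap of 0.31. These examples were chosen after their values were seen.

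**Figure D3:**
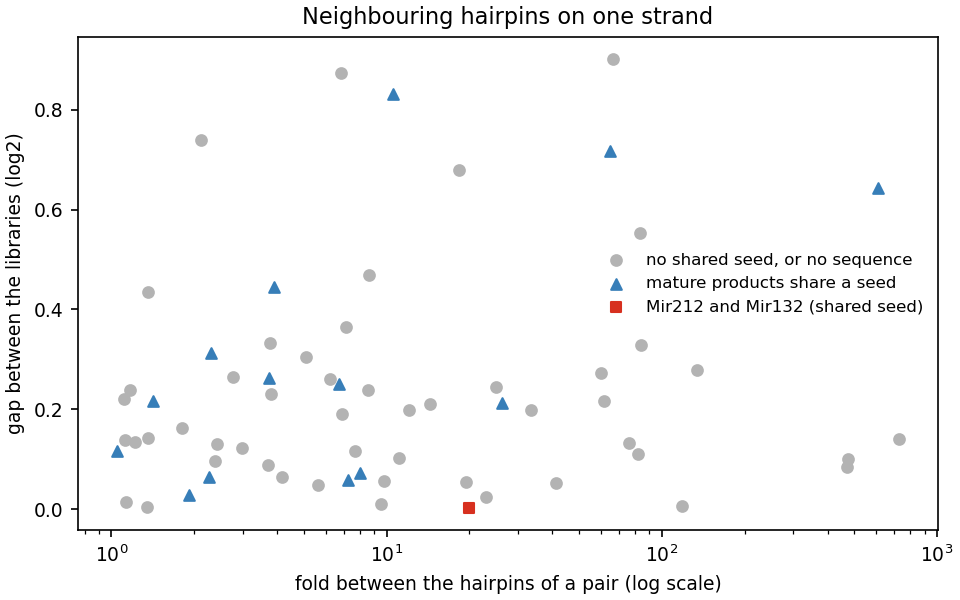
Each point is a pair of neighbouring hairpins (65 in all), with the fold between their reads on a log axis and the absolute difference between their log2 ratios of replicate 2 over replicate 1 on the vertical axis. The pair of Mir212 and Mir132 (red square) stands at a fold of 20.0 and a gap of 0.0024, with 19 pairs to the right of it and none below.

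Both members were 1.25-fold higher in replicate 2. On the log2 scale, after adding 0.5 reads to every count, the ratio of replicate 2 to replicate 1 was 0.32 for Mir132 (95% exact interval 0.28 to 0.37) and 0.32 for Mir212 (0.10 to 0.54). Each gene's reads were tested against the library totals with an exact binomial test (two-sided, Benjamini-Hochberg over the 411 genes), and both members were called (adjusted p = 3.2e-38 for Mir132 and 0.0091 for Mir212). That test compares these libraries and takes in counting error only, and 47.4% of all genes tested were called, 18.2% as higher in replicate 2. A call by this test was thus common at this depth. The SD of the log2 ratio over the genes tested was 0.43 and its median size 0.18. Of the 411 genes, 45 (10.9%) had a log2 ratio at or above that of Mir132, and 47 (11.4%) at or above that of Mir212. To allow for spread between pools, a biological coefficient of variation of 0.2 was assumed in the exact test of edgeR. No other value was tried, and the value assumed largely sets the ratio that a gene needs to pass. Neither member then passed (adjusted p = 1 for each, unadjusted p = 0.431 for Mir132 and 0.454 for Mir212), and 6 of the 411 genes (1.46%) did.

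Genes of related function moved in both directions. A list of microRNAs known from synaptic activity or dendrites had 15 entries, of which 14 were analysed and 13 had enough reads to be tested. The exact binomial test called 4 as higher in replicate 2 and 7 as higher in replicate 1, while 2 did not pass. Over all 411 genes tested it called 47.4%, with 18.2% higher in replicate 2. The list had a median log2 ratio of -0.06, against -0.06 over all genes tested. In edgeR's exact test with the assumed spread of 0.2, 0 of the 13 passed, against 1.46% of all genes tested. Of the 13, 0 had an unadjusted p below 0.05 in that test. Those higher in replicate 2 were Mir138-1 (0.31) and Mir138-2 (0.27), copies of a microRNA that restrains the growth of dendritic spines, Mir485 (0.27), a microRNA of synapses, and Mir29a (0.32), which rises as neurons mature. Among the 7 lower in replicate 2, the largest ratio was that of Mir184 (-1.12), with 41 reads in replicate 1 and 16 in replicate 2, followed by Mir188 (-0.26), Mir137 (-0.14) and Mir134 (-0.11). In level, Mir132 would stand seventh in this list, after Mir181c (16141 ± 782 CPM), Mir137 (15108 ± 1072), Mir381 (4824 ± 260), Mir379 (2876 ± 68.4), Mir188 and Mir134. Mir212 would stand below all but 3 of its genes, namely Mir34a (45.1 CPM), Mir184 (4.84 CPM) and Mir29b-1 (2.71 CPM).

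A list of neuronal microRNAs also held calls in both directions, with the larger number higher in replicate 2. No test compared the lists. Of 20 entries 19 were analysed and 17 tested, with 7 higher in replicate 2, 4 higher in replicate 1, 6 that did not pass and a median log2 ratio of 0.07. Among all 411 genes tested, the exact binomial test called 47.4%, with 18.2% higher in replicate 2, and the median log2 ratio was -0.06. With the assumed spread in edgeR, 0 of the 17 passed, against 1.46% of all genes tested, and 0 of them had an unadjusted p below 0.05. The log2 ratio was 0.38 for Mir129-2, 0.32 for Mir128-1, 0.30 for Mir383 and 0.30 for Mir9-3, on the scale where Mir132 stood at 0.32. It was -0.42 for Mir7-1 and -0.33 for Mir7-2, copies of a microRNA of neuroendocrine cells and dopamine neurons. The highest levels were those of Mir149 (25498 ± 892 CPM), Mir135b (12828 ± 996), Mir153 (5868 ± 388) and Mir128-1 (2456 ± 387). The neuronal list as a whole summed to 52506 CPM in replicate 1 and 52693 CPM in replicate 2, and the activity list to 45476 and 42510 CPM. Midbrain was the only tissue, so whether any gene of either list marks it against other parts of the brain was not tested. The 3 copies of mir-124, an abundant microRNA of neurons, were at 5.04, 3.86 and 0.54 CPM. Reads that mapped to several places, 35.3% and 36.5% of all reads, are not in the gene counts, and their part in these values was not tested.

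**Figure D4:**
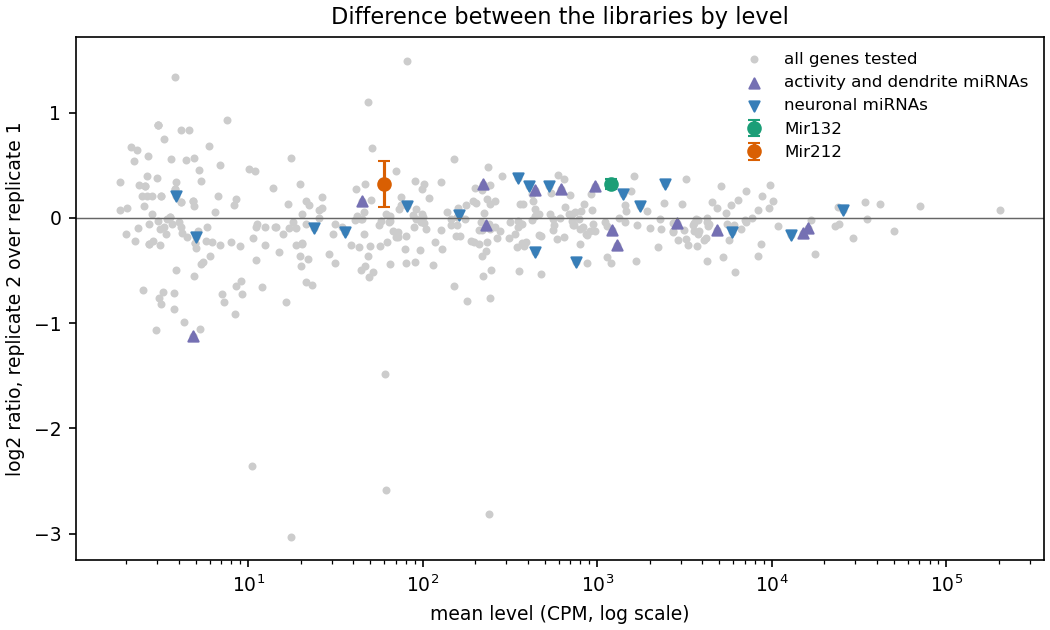
Log2 ratio of replicate 2 over replicate 1 against mean level in CPM (log axis) for the 411 genes tested, with both gene lists and the members marked; bars are 95% exact intervals. Mir132 and Mir212 stand at the same ratio of 0.32 at levels of 1194 and 59.6 CPM, and genes of both lists lie on either side of 0.

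Of the 6 lists of markers of other cells, the epithelial one was the only one with calls at the assumed spread. The exact binomial test called all 7 epithelial genes as lower in replicate 2. With the assumed spread 5 of them passed, against 1.46% of all genes tested. The log2 ratio was -2.82 for Mir429, -3.03 for Mir200a, -2.58 for Mir200b, -1.48 for Mir200c and -2.35 for Mir141. Mir203 (-0.20), the highest of the list in mean level, and Mir205 (-0.43) moved less. Mir429, Mir200a and Mir200b are neighbours among the pairs above, as are Mir141 and Mir200c, so the calls are not independent. The epithelial list summed to 1327 CPM in replicate 1 and 689 CPM in replicate 2. For the lists that follow, the calls are those of the exact binomial test, which called 47.4% of all genes. The blood list (4 of 4 genes tested, 2 higher in replicate 2, 0 lower) summed to 410 and 487 CPM, and the oligodendrocyte list (3 of 3 tested, 2 higher, 1 lower) to 1524 and 1700 CPM. The endothelial and mural list (4 of 4 tested, 1 higher, 1 lower) summed to 29498 and 30961 CPM, and the choroid plexus and eye list (5 of 5 tested, 3 higher, 1 lower) to 3648 and 3517 CPM. The muscle list (2 of 3 tested, 0 called) summed to 35.9 and 33.1 CPM. With the assumed spread in edgeR, 0 genes of the 5 lists other than the epithelial one passed, and 0 had an unadjusted p below 0.05. Every listed marker had reads in both libraries. The part of these cells in the levels of Mir132 and Mir212 was not tested.

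On chromosome 11, 3 other microRNA genes lie within 1 Mb of the pair. Mir22, a broadly expressed microRNA 290 kb away at chr11:75463716-75463810, had 5568 CPM in replicate 1 against 6071 CPM in replicate 2 (log2 ratio 0.12, adjusted p = 6.4e-28 by the exact binomial test). Mir6926, on the minus strand, had 6 reads in each library, and Mir3971 had 0 reads in both.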

How the data were processed

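MicroRNA-seq was carried out on 2 libraries. The deposited values are raw read counts per miRNA gene, 1 table per library, on mm10 with GENCODE M4, per the file headers in the deposited descriptions. For the aligner, the counting program and adapter trimming, no tool is named in the labels or file headers. The tables have 3 count columns (either, sense and opposite strand), and the sense counts were used. Rows that name no gene (54.9% and 55.8% of reads, mostly reads mapping to several places) were left out of totals and tests. Symbols and positions came from GENCODE M21 (1894 of 1973 genes matched by identifier without version). The model of Mir132 has a newer version there than in the tables.

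CPM was computed over the summed sense counts. Exact tests used scipy 1.17.1 (Python 3.11.15), alternatives used edgeR 4.0.16 and DESeq2 1.42.0 in R 4.3.3, and folding used RNAfold 2.7.2. The binomial test and Fisher's test of pairs were checked on simulated counts with counting error only. That check does not cover spread between pools, and the edgeR test was not part of it. The threshold was an adjusted p of 0.05. Named genes were the members, the 3 genes on either side in level, genes sharing a seed, genes within 1 Mb and the 4 highest of each list of related function, and genes outside this rule are examples chosen after their values were seen, such as the list genes picked for their ratios. For marker lists other than the epithelial one, only sums and counts are given. The members and the gene lists were chosen with earlier results of these data known. The binomial and Fisher p-values set the difference between these libraries against counting error, and those of edgeR against an assumed coefficient of variation of 0.2, so none measures the spread between pools. The entries Mir191 and Mir9-1 were not analysed here.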

Additional observations from a re-analysis of the deposited data

How the results depend on the processing

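The direction of both ratios was the same under each scaling, strand and pseudocount tried. Strand and pseudocount could hardly have changed it, as both hairpins had 0 reads on the opposite strand and 326 or more sense reads. With TMM factors the ratios were 0.37 for Mir132 and 0.37 for Mir212. The genes called then split into 90 higher in replicate 2 and 95 in replicate 1, against 75 and 120 with scaling by the summed sense counts alone. With all reads as the denominator the split was 65 and 142. At a fixed coefficient of variation of 0.2 the ratios stayed at 0.32 for both members but did not pass (adjusted p = 1), and 6 genes were called in place of 195. Levels moved beyond their SD with all reads as the denominator (532 CPM for Mir132, 26.6 for Mir212) and with Mir99a left out of it (1498 and 74.8 CPM). The share of Mir132 in the pair does not depend on scaling. Per base of hairpin, an alternative chosen after seeing the data, the fold was 27.6 in place of 20.02. With starts within 10 kb the pair had rank 32 of 98 by fold, against 20 of 65. It kept the smallest gap there. The pairs with a minimum of 50 reads are part of the 65, so its smallest gap among them was fixed in advance. Leaving out either library gave ranks from 85 to 91 for Mir132 and from 231 to 249 for Mir212. The 326 and 352 reads of Mir212 set the precision of every statement on the proportion. No paired analysis was possible because there was 1 group.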
